A study of Mus musculus with 12 samples.

Results

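Endothelial cells line the blood vessels, and 10 genes that mark them were followed in RNA sequenced from neutrophils sorted out of the mouse left ventricle. The genes, chosen by name from the 11911 genes of the table, were Cdh5, Emcn, Kdr, Tie1, Tek, Eng, Cav1, Fabp4, Egfl7 and Vwf, and the table lists all 10. Neutrophils are blood-borne white cells and are not known to make most of these transcripts. The table holds 6 libraries of the genotype labelled LOY (numbered 3, 4, 5, 10, 14 and 15), which by the title of the series stands for hematopoietic cells that have lost the Y chromosome, and 6 of the control genotype (2, 6, 7, 8, 11 and 12). Both groups carry a control treatment label and the title words control BMT, a bone marrow transplant. The heart tissue was digested with enzymes, and 800 cells per library were sorted as positive for CD45.2, for the neutrophil antigen Ly6G and for a red fluorescent protein and as negative for the macrophage receptor CD64, a gate that is not meant to hold endothelial cells. Strain, age and sex of the mice, the agent behind the LOY genotype and whether each library came from its own mouse are not given in the sources used here, so a p-value here covers only how far these libraries spread, which may be technical. Several of the 10 are also made outside the endothelium. Fabp4 is made by adipocytes and macrophages, Eng by macrophages, Vwf by platelets and their precursors, and Cav1 by fibroblasts, adipocytes and smooth muscle.

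The libraries held 6767108 to 12561174 reads of the listed genes, and the values given are normalised reads, for which each library's reads were divided by its own factor. The 3 Y-linked genes of the table that were looked up, Ddx3y, Eif2s3y and Uty, summed to 0 to 59.3 normalised reads in LOY libraries and to 1032 to 1972 in control libraries. The 14 neutrophil markers summed to 342006 to 753824 normalised reads in LOY libraries and to 346758 to 981780 in control libraries. The 10 endothelial genes together came to 549 ± 153 RPM (reads scaled to the same total in every library) in LOY libraries and to 284 ± 116 in control libraries (SD, n = 6 each), so they were a small share of each library. A count of 0 allows up to 3 reads, which is 0.239 to 0.443 RPM depending on the library, and this floor covers counting error only. In a bulk sample a change in the number of cells of a type and a change in RNA per cell cannot be told apart.

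Endothelial cells hold to each other through adherens junctions built on VE-cadherin, the product of Cdh5. They respond to vascular endothelial growth factor through the receptor tyrosine kinase VEGFR-2 (Kdr) and to the angiopoietins through TIE2 (Tek), with TIE1 as the partner of TIE2. Endoglin (Eng) is a co-receptor for BMP9 and TGF-beta family ligands, caveolin-1 (Cav1) forms the coat of caveolae, Fabp4 binds fatty acids in capillary endothelium, and Egfl7 and Vwf are secreted.

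In each of the 12 libraries some endothelial transcripts were read, but which of the 10 were read differed from library to library. Of the 10, 8 were read in enough libraries to be tested, and 0 of these differed between LOY and control libraries past the threshold of the fit over all genes. Cav1 and Egfl7 had the smallest p-values of the 8. The LOY and control values of Cav1 did not overlap. Of all 6951 tested genes, 0.101% likewise did not overlap as higher in LOY and 0.101% as lower. With each gene-library pair counted once, the 10 genes reached at least 10 normalised reads in 45 of 60 pairs in LOY libraries (75.0%) and in 36 of 60 in control libraries (60.0%). Over all 11911 genes the same shares were 58.2% and 56.6%. LOY 10 and LOY 15 had 9 of the 10 genes at that level, and so did control 11. At the low end 4 genes reached it in LOY 5, and likewise in control 7 and control 8.

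**Figure D1:**
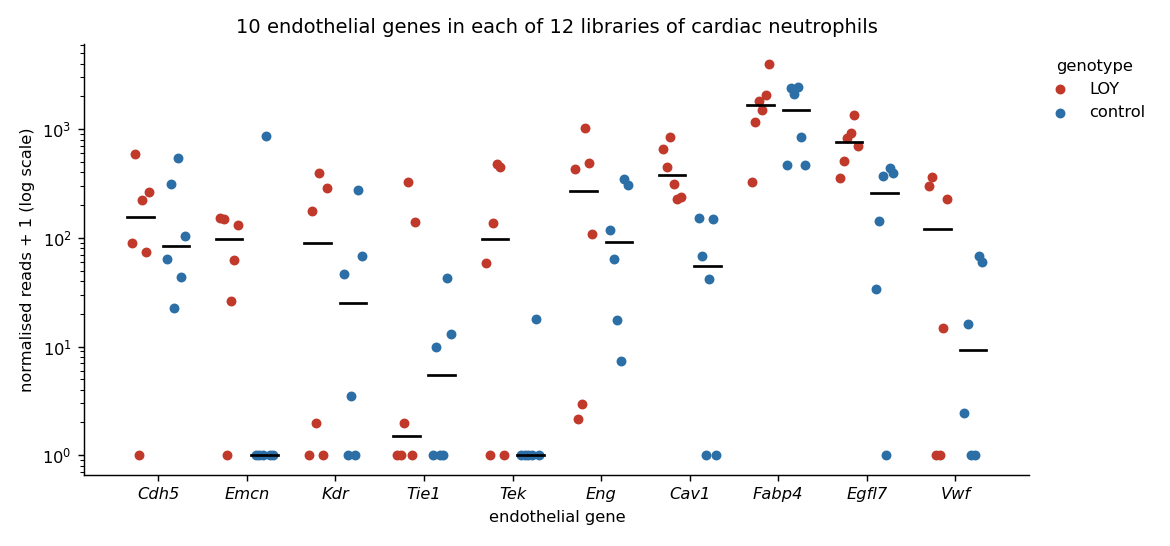
Normalised reads plus 1 (y axis, log scale) of each endothelial gene (x axis) in every library, LOY in red on the left of each pair and control in blue on the right; points are libraries and black bars are group medians. Points at the bottom are libraries with 0 reads. Cav1 shows 6 LOY points above all 6 control points, while the other genes overlap.

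The 8 tested genes had 6 or more libraries at 10 or more normalised reads, and the test was limma on log2(normalised reads + 1) over 6951 genes. Of the 8 genes 0 passed an adjusted p of 0.05 (Benjamini-Hochberg over all genes tested), where 0.0144% of all tested genes passed as higher in LOY and 0.0144% as lower. At an unadjusted p below 0.05 stood 2 of the 8, Cav1 and Egfl7, both with a positive log2 fold change, against 2.33% of all tested genes in that direction and 2.04% in the other. The log2 fold change was positive for 7 of the 8 and negative for Cdh5, with a median of 1.24, while over all 6951 genes 3500 were positive (50.4%) with a median of 0.008. This count moved when 1 library was left out, from 4 of 6 tested genes without LOY 10 or without LOY 15 to 8 of 8 without LOY 5. Emcn entered the fit through 5 LOY libraries and 1 control library, so the filter itself favoured a positive value for it, and Kdr entered with 3 libraries of each group. Tek and Tie1 were below the filter and were not tested. The authors' deposited table gives 0 of the 10 genes an adjusted p below 0.05, where 1.91% of the genes with one are called higher in LOY and 1.2% lower. edgeR on the recovered reads also called 0 of 8 members, and 0 of 7054 genes in all (0% in each direction). It had 129 genes at an unadjusted p below 0.05, and Cav1 (0.0617) and Egfl7 (0.0989) were not among them. In DESeq2 on the recovered reads the unadjusted p was 0.0138 for Cav1 and 0.0496 for Egfl7.

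**Figure D2:**
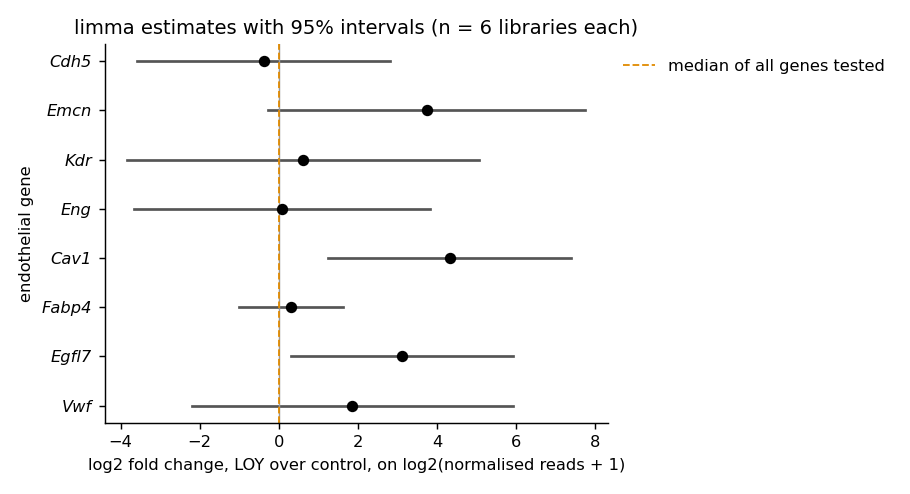
The limma log2 fold change of LOY over control (x axis) for the 8 tested endothelial genes (y axis), as points with 95% intervals, n = 6 libraries each; the dashed line is the median of all genes tested. The intervals of Cav1 and Egfl7 lie above 0 before adjustment for multiple tests, and those of the other 6 genes include 0.

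Among the junction and surface genes, VE-cadherin (Cdh5, ENSMUSG00000031871, GRCm38 chromosome 8, 104101625 to 104144511) was read in 11 of 12 libraries. Its normalised reads ran from 0 to 594 with a median of 154 in LOY libraries and from 21.5 to 546 with a median of 82.5 in control libraries. LOY 4 and control 8 were the highest, LOY 5 was the library at 0, and the groups overlapped over nearly their whole ranges. Its fold change on the log2 scale was -0.38 with a 95% interval of -3.58 to 2.82 (adjusted p = 0.999 in limma), and it turned positive without LOY 5 (0.88) or without control 8 (0.105). The means of Cdh5 had the opposite direction, at 206.6 ± 213.9 in LOY libraries and 181.5 ± 207.7 in control libraries (SD, n = 6 each). Emcn encodes endomucin, a sialomucin of capillary and venous endothelium (ENSMUSG00000054690, chromosome 3, 137341067 to 137432185). It ran from 0 to 153 with a median of 96.4 in LOY libraries and from 0 to 873 with a median of 0 in control libraries. Its reads were in 5 of the 6 LOY libraries, all but LOY 5, while control 8 alone among the control libraries had any. The mean was 86.4 ± 66.2 in LOY libraries and 145 ± 356 in control libraries (SD, n = 6 each), so the means and the log2 fold change of 3.74 (SE 1.87, adjusted p = 0.997 in limma) have opposite directions, DESeq2 on the reads gave -0.75, and without control 8 the control group is at 0.

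The receptor genes were read patchily. Kdr (ENSMUSG00000062960, chromosome 5, 75932827 to 75978458) ran from 0 to 394 normalised reads with a median of 87.7 in LOY libraries and from 0 to 277 with a median of 24.1 in control libraries. LOY 10, LOY 15 and control 11 held the 3 highest values, and 2 libraries of each group had 0 reads. Its log2 fold change was 0.62 (95% interval -3.83 to 5.06, adjusted p = 0.999 in limma), and it turned to -0.10 without control 6 and also without control 8, while DESeq2 on the reads gave 1.12. Tie1 (ENSMUSG00000033191, chromosome 4, 118471191 to 118490061) ran from 0 to 327 with a median of 0.494 in LOY libraries and from 0 to 42.1 with a median of 4.49 in control libraries. Its LOY level rested on LOY 10 and LOY 15, and 3 libraries of each group had 0 reads. The ratio of the group means was 7.39, and was 2.65 without LOY 10 and 18.5 without control 11.

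Tek showed a wider gap in detection than Tie1. The TIE2 receptor gene Tek (ENSMUSG00000006386, chromosome 4, 94739289 to 94874976) ran from 0 to 482 with a median of 96.1 in LOY libraries and from 0 to 17.05 with a median of 0 in control libraries. LOY 10 and LOY 14 were the highest at 481.7 and 443.5, LOY 4 and LOY 15 had 0 reads, and control 11 was the only control library with reads. In all, 1322 reads were counted in LOY libraries and 30 in control libraries. The ratio of means was 65.5, and because 1 control library carries the whole lower value it says little about the size. The authors' deposited table gives Tek a log2 fold change of 6.02 with an adjusted p of 0.148, and a two-sided exact permutation test of the log2 values gave an unadjusted p of 0.0606.

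Endoglin was read in every library. Eng (ENSMUSG00000026814, chromosome 2, 32646595 to 32682669) ran from 1.16 to 1034 with a median of 267 in LOY libraries and from 6.33 to 350 with a median of 90.2 in control libraries. LOY 10 was the highest, while LOY 4 and LOY 5 were below every control library, so the LOY group spanned the control group on both sides. On the log2 scale the fold change was 0.089 (95% interval -3.65 to 3.83, adjusted p = 1.000 in limma), and it ran from -0.68 to 1.10 when 1 library was left out, being negative without LOY 3, 10, 14 or 15 or without control 7 or 8. DESeq2 on the reads gave 1.26. An exon of Eng shares up to 61 bases with Fpgs on the opposite strand in GENCODE M21, and the chemistry carries no strand, so reads there cannot be assigned with certainty.

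Cav1 was the 1 gene of the 10 whose groups did not overlap. The caveolin-1 gene (ENSMUSG00000007655, chromosome 6, 17306335 to 17341452) ran from 225 to 848 normalised reads with a median of 379 in LOY libraries and from 0 to 150 with a median of 53.6 in control libraries. Every LOY library was above every control library, and control 7 and control 12 had 0 reads. The means were 454 ± 252 in LOY libraries and 67.8 ± 68.4 in control libraries (SD, n = 6 each), a ratio of 6.70 that ran from 5.54 to 8.85 when 1 library was left out. The log2 fold change of 4.33 (SE 1.43, 95% interval 1.26 to 7.40) had an unadjusted p of 0.00910 and an adjusted p of 0.997 in limma. A two-sided exact permutation test gave an unadjusted p of 0.00216, the smallest that 6 libraries against 6 can give. Every LOY value was above every control value in 0.101% of all tested genes (7 of 6951, Cav1 among them). Every LOY value was below every control value in another 0.101%. In the authors' deposited table the log2 fold change of Cav1 is 2.74 with an adjusted p of 0.235.

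The 250 bases before the Cav1 start are shown because this gene separated the groups (RefSeq, build GRCm38.p6, chr6:17306085-17306334, plus strand, 5′ to 3′). They hold no copy of the motifs searched, which were the ETS-family sequences CCGGAAGT and CAGGAAGT and the GATA-family sequence AGATAA on both strands, and this says only that those letters are not in the window.
Cav1: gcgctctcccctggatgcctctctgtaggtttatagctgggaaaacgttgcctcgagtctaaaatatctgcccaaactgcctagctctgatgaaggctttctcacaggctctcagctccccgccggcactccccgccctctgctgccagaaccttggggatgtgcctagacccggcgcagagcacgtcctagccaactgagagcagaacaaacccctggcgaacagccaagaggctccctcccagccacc

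Fabp4, which carries fatty acids inside cells, was the most abundant of the 10. The gene (ENSMUSG00000062515, chromosome 3, 10204088 to 10208576) ran from 328 to 4011 normalised reads with a median of 1655 in LOY libraries and from 469 to 2419 with a median of 1485 in control libraries. LOY 15 was the highest and LOY 3 the lowest, so the LOY group spanned the control group. The log2 fold change of 0.32 had the narrowest interval of the 8 tested genes, -0.998 to 1.63 (adjusted p = 0.999 in limma). Of the 5 adipocyte markers looked up the table lists 1, Pparg, which had 464 normalised reads in LOY 14, 56.8 in control 11 and 0 in the other 10 libraries. The 10 macrophage markers summed to 28163 to 83433 normalised reads in LOY libraries, highest in LOY 15, and to 32976 to 55961 in control libraries. The part of adipocytes or macrophages in the level of Fabp4 was not tested.

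Egfl7, a secreted protein that shapes vessel tubes, was next to Cav1 in the fit. The gene (ENSMUSG00000026921, chromosome 2, 26580014 to 26593120) ran from 351 to 1359 normalised reads with a median of 764 in LOY libraries and from 0 to 439 with a median of 256 in control libraries. LOY 14 was the highest and control 8 had 0 reads. LOY 3 at 351 was below control 7, 11 and 12, and the other 5 LOY libraries were above all control libraries. The means were 777 ± 352 in LOY libraries and 230 ± 195 in control libraries (SD, n = 6 each). The log2 fold change of 3.11 (SE 1.31, 95% interval 0.30 to 5.92) had an unadjusted p of 0.0324 and an adjusted p of 0.997 in limma, and it was 1.84 without control 8. In the authors' deposited table it is 1.76 with an adjusted p of 0.495. In GENCODE M21 an exon of Egfl7 shares up to 125 bases with Gm20532, a protein-coding gene on the same strand that was not analysed here. Exons of Egfl7 and of Agpat2, a lipid synthesis enzyme on the opposite strand, share up to 64 bases. Agpat2 averaged 634 ± 220 normalised reads in LOY libraries and 270 ± 336 in control libraries (SD, n = 6 each). The log2 fold change of Agpat2 was 2.10 (95% interval 0.29 to 3.91), with an unadjusted p of 0.0260 and an adjusted p of 0.997 in limma. Control 8 held 16.5 of Agpat2 and 0 of Egfl7, and control 11 held 911 and 439. Control 2 held 372 of Agpat2 and 32.6 of Egfl7, while control 12 held 111 and 394. LOY 4 held 982 of Agpat2 and 508 of Egfl7, while LOY 10 held 312 and 915. Reads of these shared stretches cannot be assigned with certainty.

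The Egfl7 locus is shown for 2 reasons. It hosts miR-126, a microRNA abundant in endothelium, and 1 of its 3 RefSeq start windows was the only one of 10 member windows to hold CAGGAAGT, in capitals in the 250 bases before that start (GRCm38.p6, chr2:26583615-26583864, plus strand, 5′ to 3′). RefSeq start windows were matched for 7 of the 10 genes. Of 32851 windows of 300 bases 3.33% hold CAGGAAGT on either strand, 3.89% hold CCGGAAGT, which 0 of the 10 member windows held, and 11.2% hold AGATAA, which the Tek window held after its start. The 3p mature sequences are given with the seed, bases 2 to 8, in capitals, miR-126a-3p from the strand of Egfl7 and miR-126b-3p from the opposite strand of the same stretch. Their levels were not analysed here.
Egfl7: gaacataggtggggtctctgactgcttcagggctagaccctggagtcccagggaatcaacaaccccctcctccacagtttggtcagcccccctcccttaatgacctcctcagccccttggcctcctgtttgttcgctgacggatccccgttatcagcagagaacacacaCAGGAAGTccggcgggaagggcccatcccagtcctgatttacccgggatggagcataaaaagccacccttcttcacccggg
mmu-miR-126a-3p: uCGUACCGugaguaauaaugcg
mmu-miR-126b-3p: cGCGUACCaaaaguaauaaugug

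Vwf encodes von Willebrand factor, the clotting protein stored in Weibel-Palade bodies (ENSMUSG00000001930, chromosome 6, 125546774 to 125686679). It ran from 0 to 361 normalised reads with a median of 120 in LOY libraries and from 0 to 67.6 with a median of 8.21 in control libraries. LOY 3, 4 and 15 were above every control library, LOY 14 at 13.7 was inside the control range, and LOY 5 and LOY 10 had 0 reads, as had control 7 and control 8. The ratio of means was 6.30 and was 10.0 without control 11, and the log2 fold change was 1.86 (95% interval -2.20 to 5.91, adjusted p = 0.998 in limma). The 2 platelet markers of 7 that the table lists, Pf4 and Itga2b, summed to 3.49 to 619 normalised reads in LOY libraries and to 8.33 to 154 in control libraries. The platelet sum averaged 228 ± 220 in LOY libraries and 66.2 ± 66.05 in control libraries (SD, n = 6 each), higher in LOY as Vwf was. LOY 4, the library with the most Vwf, had the lowest platelet sum of all 12 libraries. The part of platelets in the level of Vwf was not tested.

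Levels of different genes were compared per kilobase of exon, as means of normalised reads over all 12 libraries. The order was Fabp4 at 365 per kilobase, Egfl7 at 141, Cav1 at 75.8, Eng at 60.1, Cdh5 at 46.2, Emcn at 21.4, Tek at 20.1, Kdr at 11.5, Tie1 at 8.97 and Vwf at 5.39. For Fabp4 the exon length used, 4489 bases, is the whole span of the gene. Any introns were thus counted as exon, and the Fabp4 values per kilobase are lower bounds. Per kilobase, Egfl7 had 217 ± 98.3 in LOY libraries and 64.2 ± 54.5 in control libraries, while Cdh5 had 49.2 ± 50.9 and 43.2 ± 49.4 in the same order (SD, n = 6 each). The SD of each gene over LOY libraries was larger than its gap to the next gene in this order of means over all 12 libraries. Levels in LOY libraries ran from 9.31 ± 10.2 for Vwf to 405 ± 275 for Fabp4 (mean ± SD per kilobase, n = 6). Within LOY libraries the order differed, with Tek at 39.5 ± 46.7 above Emcn at 16.0 ± 12.2 per kilobase. In control libraries Fabp4 at 325 ± 214 and Egfl7 at 64.2 ± 54.5 per kilobase lay further apart than either SD.

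The summed level of the 10 genes was 4241 ± 1359 normalised reads in LOY libraries and 2327 ± 1087 in control libraries (SD, n = 6 each), a ratio of 1.82. It ran from 2359 to 6100 in LOY libraries and from 880 to 3884 in control libraries, and the groups overlapped. Fabp4 made up 13.9% to 65.8% of the sum in LOY libraries and 33.3% to 83.8% in control libraries. Without Fabp4, a step chosen after its values were seen, the other 9 genes summed to 2424 ± 692 in LOY libraries and to 870 ± 472 in control libraries (SD, n = 6 each). The lowest LOY library was then LOY 5 at 1815 and the highest control library was control 8 at 1466, so the groups did not overlap, and the ratio of means of 2.79 ran from 2.49 to 3.23 when 1 library was left out. In LOY 5 that sum held 848 of Cav1 and 829 of Egfl7, the 2 genes with the smallest p-values in the limma fit. In control 8 it held 40.5 of Cav1, 0 of Egfl7 and 873 of Emcn. The gap between the groups thus leans on Cav1 and Egfl7. How often sums of other genes part the groups was not examined. The sums are a description with no test, since the genes were chosen with earlier results known.

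**Figure D3:**
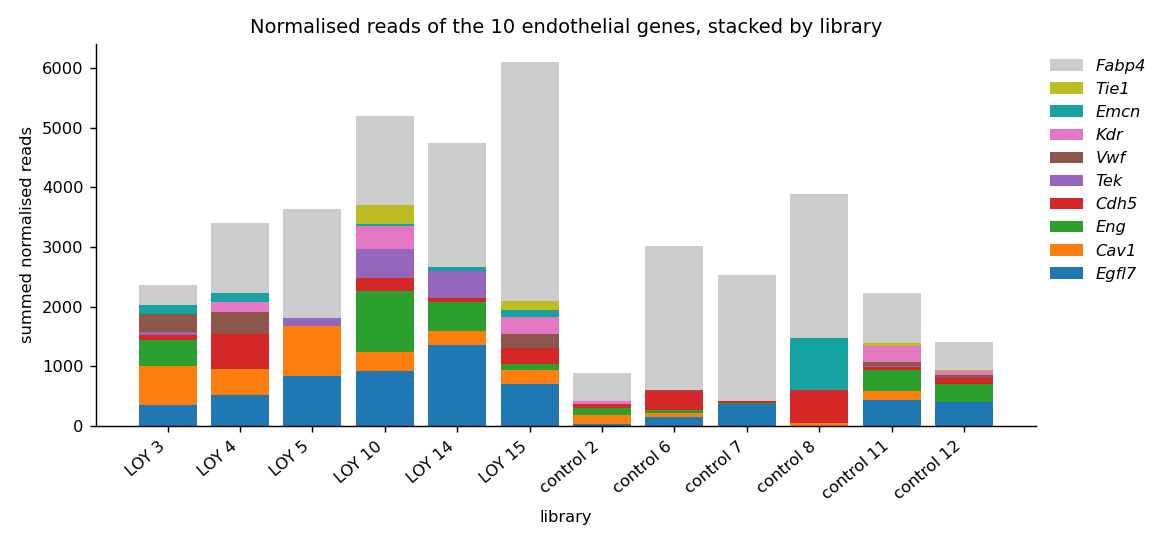
Summed normalised reads (y axis, from 0) of the 10 endothelial genes in each library (x axis), LOY libraries on the left, with 1 colour per gene and Fabp4 in light grey on top. The coloured part below Fabp4 is 1815 to 3712 in LOY libraries and 410 to 1466 in control libraries, and its makeup differs from library to library.

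The makeup of that sum was uneven. Outside Fabp4 the leading gene was Cav1 in LOY 3 and LOY 5, Cdh5 in LOY 4, Eng in LOY 10 and Egfl7 in LOY 14 and LOY 15. Among control libraries it was Egfl7 in control 7, 11 and 12, Cav1 in control 2, Cdh5 in control 6 and Emcn in control 8. LOY 5 had 848 normalised reads of Cav1, the most of any library, and 828.7 of Egfl7, with 0 of Cdh5, Emcn and Vwf and at most 1.98 of Kdr, Tie1 and Eng. Control 7 had 371 of Egfl7 and 0 of Cav1, Emcn, Tek, Tie1 and Vwf. In both libraries Egfl7 was read without Emcn and Vwf.

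Markers of other heart cells were set beside these values. The 15 cardiomyocyte markers summed to 4499 to 67336 normalised reads in LOY libraries, with a median of 14358, and to 4770 to 8270 in control libraries, with a median of 5917. LOY 10 was the highest library both for these and for the 9 endothelial genes without Fabp4. LOY 3, 4, 10, 14 and 15 were above every control library for cardiomyocyte markers, at 11210 to 67336, and also for the 9 endothelial genes. LOY 5 was the lowest of all 12 for cardiomyocyte markers while its 9 endothelial genes were above every control library. The 10 fibroblast markers summed to 5835 to 16579 in LOY libraries and to 2972 to 10540 in control libraries. The 9 listed of 10 pericyte and smooth muscle markers, from cells that sit on the vessel wall, summed to 115 to 2557 in LOY libraries and to 579 to 989 in control libraries. LOY 15 and LOY 14 were the lowest of all 12 libraries for these wall cells and stood at ranks 4 and 2 of 12 for the 9 endothelial genes. The ratio of the 9 endothelial genes was 2.49 without LOY 10 and 2.93 without LOY 5. The 8 B cell markers summed to 2996 to 8887 in LOY libraries and to 3263 to 12354 in control libraries, the 6 red cell markers to 0.989 to 6766 and to 2.84 to 9909 in the same order, and the 2 listed of 9 T and NK cell markers to 0 to 658 and to 0 to 440. The part of any of these cells in the endothelial values was not tested.

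**Figure D4:**
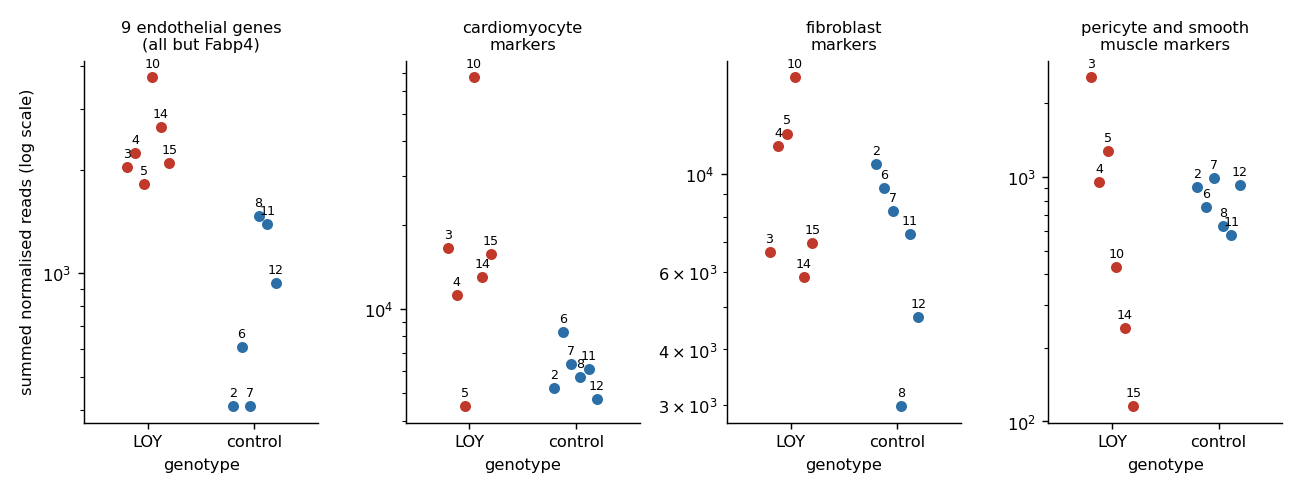
Summed normalised reads (y axes, log scale, each with its own range) of the 9 endothelial genes without Fabp4 and of the markers of 3 other heart cell types in each library, LOY in red on the left and control in blue on the right, with library numbers beside the points. LOY 10 is highest in the first 3 panels. For cardiomyocyte markers LOY 5 is low and every other LOY library is above all control libraries. LOY 5 is not low for fibroblast markers.

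A wider set of 98 endothelial genes in 8 lists by role was read from the same fit. The table lists 88 of them, 53 were tested and 0 passed, against 0.0144% of all tested genes in each direction. The log2 fold change was positive for 40 of the 53 and negative for 13, with a median of 0.81, beside 50.4% positive and a median of 0.008 over all tested genes. A lean to positive values was also seen in other heart cell markers, with 14 of 14 tested cardiomyocyte markers positive (median 1.77, 5 at an unadjusted p below 0.05) and 6 of 6 fibroblast markers (median 1.88), while 3 of 14 neutrophil markers were positive (median -0.20). The part of those cells in the endothelial lean was not tested. These lists were written with earlier results of the data known, and genes entered the fit through high values in either group, so the counts describe the lists and support nothing further. In DESeq2 2 of the 77 with an adjusted p were called, both higher in LOY, where 1.91% of all genes were. They were the apelin receptor gene Aplnr, with 337, 373 and 353 normalised reads in LOY 3, 4 and 15 and 0 in the other 9 libraries, and Clec14a, with 140 in LOY 10 and 357 in LOY 15 and 0 in the other 10.

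In the caveola list all 5 tested genes had positive values, with a median of 2.73. Cavin3, a coat protein that works with caveolin-1, ran from 137 to 391.6 normalised reads with a median of 264 in LOY libraries and from 0 to 178 with a median of 0 in control libraries. It was read in all 6 LOY libraries and in control 6 and control 11 alone among control libraries, and control 6 lay above LOY 3 and LOY 4. Its log2 fold change was 5.87 (SE 1.45, adjusted p = 0.696 in limma), against 2.90 in DESeq2 on the reads. Cavin3 entered the fit through 6 LOY libraries and 2 control libraries, so the filter itself favoured a positive value for it. Ehd2, an ATPase at the caveolar neck, stood at 3.18 (SE 1.98; 1.51 in DESeq2) and Cav2, the partner of caveolin-1, at 2.73 (SE 1.86), both with an adjusted p of 0.997 in limma. Ehd2 and Cav2 each entered the fit through 5 LOY libraries and 3 control libraries. Caveolae are also found in fibroblasts, muscle and adipocytes.

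In the junction and surface list 8 of 11 tested genes were positive, with a median of 0.26. Esam, an endothelial adhesion molecule, ran from 0.706 to 496 with a median of 395 in LOY libraries and from 0 to 695 with a median of 0 in control libraries. It was at 172 or more in 5 LOY libraries, all but LOY 10, while control 6 held the highest value of all 12. Esam entered the fit through 5 LOY libraries and 1 control library, and its log2 fold change was 5.51 in limma (SE 1.93, adjusted p = 0.997) but 1.43 in DESeq2, with a ratio of means of 2.69. Cd34 averaged 344 ± 254 in LOY libraries and 93.0 ± 159 in control libraries, and Pecam1, which leukocytes also carry, 461 ± 239 and 157 ± 120 in the same order (SD, n = 6 each; adjusted p = 0.997 for both in limma). The log2 fold change of Cd34 was 3.38 in limma and 1.89 in DESeq2. The claudin gene Cldn5 was looked up, but the table does not list it.

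All 6 tested genes of capillary lipid and water handling were positive, with a median of 1.31. Lpl, the lipase that frees fatty acids from lipoproteins, averaged 957 ± 1269 normalised reads in LOY libraries and 282 ± 305 in control libraries (SD, n = 6 each), and LOY 10 at 3515 carried much of the LOY mean. For Rgcc the log2 fold change was 0.85 (SE 0.49) and for Fabp5 0.88 (SE 0.81; 0.47 in DESeq2), both with an adjusted p of 0.997 in limma. All 5 tested genes of coagulation and activated endothelium were positive as well, with a median of 1.13. Selp, the P-selectin gene of endothelium and platelets, averaged 153 ± 130 in LOY libraries and 23.9 ± 37.7 in control libraries (SD, n = 6 each). Of the adhesion genes, Vcam1 had a log2 fold change of 1.13 (SE 1.20; 2.29 in DESeq2) and Icam1 of 0.345 (SE 0.49). Of the 8 tested genes of basement membrane and vessel matrix 7 were positive, with a median of 1.21. They included Sparc (0.82, SE 0.43), the laminin gene Lama4 (2.27, SE 2.01; -0.28 in DESeq2) and the perlecan gene Hspg2 (1.48, SE 1.53; 0.74 in DESeq2), and fibroblasts also make these.

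In the other 3 lists as many genes were positive as negative. Of 4 tested genes of growth factor receptors and ligands 2 were positive and 2 negative, with a median of 0.11. Flt1, the VEGFR-1 gene and a relative of Kdr, averaged 75.8 ± 64.1 normalised reads in LOY libraries and 109 ± 129 in control libraries (SD, n = 6 each), with -0.058 (SE 1.66) as the log2 fold change in limma and -0.525 in DESeq2. Ptprb, the phosphatase that opposes TIE2, averaged 435 ± 592 and 182 ± 270, Vegfa 527 ± 499 and 422 ± 405, and Nrp1 302 ± 228 and 309 ± 378 in the same order (SD, n = 6 each). Among transcription factors and Notch genes 4 were positive and 4 negative, with a median of 0.13. The shear-responsive factor gene Klf2, also made by leukocytes, had 2300 ± 1572 in LOY libraries and 4306 ± 2588 in control libraries (SD, n = 6 each). Epas1 averaged 154.4 ± 139 in LOY libraries and 153.7 ± 301 in control libraries (SD, n = 6 each), a log2 fold change of 1.67 in limma (SE 1.53) and 0.008 in DESeq2. Fli1, which leukocytes also make, stood at 0.51 (SE 0.66). Erg, an ETS factor of endothelium, was below the filter, with reads in LOY 3, 10 and 14 and in control 6 only. Of 6 tested genes of TGF-beta and BMP signalling 3 were positive and 3 negative, with a median of -0.83. Bmpr2, a receptor that acts with endoglin's ligands, averaged 116 ± 128 in LOY libraries and 344 ± 279 in control libraries (SD, n = 6 each), a log2 fold change of -2.57 (SE 1.415) in limma and -1.57 in DESeq2. The target gene Id1 stood at 2.59 (SE 1.43) in limma and 0.89 in DESeq2, and Id3 at -3.01 (SE 1.74) and -0.71.

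**Figure D5:**
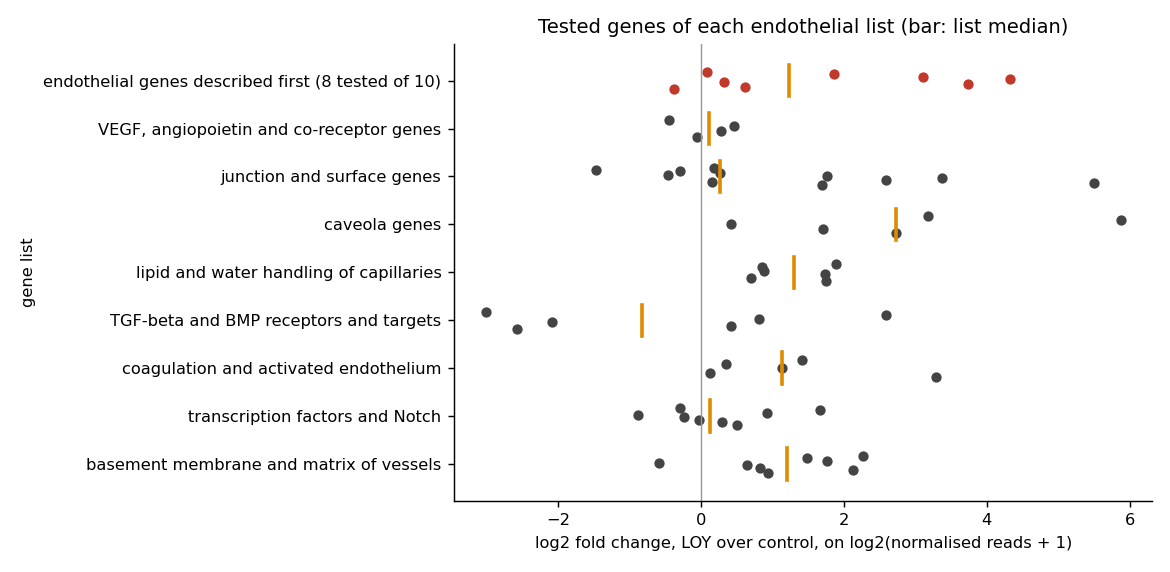
Log2 fold change of LOY over control (x axis) for each tested gene of the endothelial lists (y axis, 1 row per list), with the 8 tested of the 10 genes described first in red and orange bars at the list medians. The caveola genes have the highest median at 2.73 and the TGF-beta and BMP genes the lowest at -0.83, and 0 of the genes shown passed the threshold.

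The tested genes whose pattern over the 12 libraries was most like the mean log2 level of the 10 were sought by the mean absolute difference of library ranks. Over 6943 genes the median of this difference was 3.83 ranks. The closest were Cdk5rap3 (1.00), Mms19 and Rps15 (1.33 each), and Nppa and Stx16 (1.42 each). Nppa, the natriuretic peptide gene of atrial and stressed heart muscle, ran from 181 to 3008 normalised reads in LOY libraries and from 0 to 631 in control libraries. LOY 10 and LOY 15 were its highest libraries as they were for the 10 genes. Genes were chosen here by likeness of library ranks, so shared highest libraries are built into the choice. The ribosomal protein gene Rps15 had 250 to 936 in LOY libraries and 269 to 869 in control libraries.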

How the data were processed

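RNA of sorted cardiac neutrophils was amplified from full-length cDNA without molecular identifiers or strand, per the labels' protocols. Per the submitters' processing notes, reads went through STAR 2.5.2b, Trimmomatic 0.36, bcl2fastq 2.17 and Subread 1.5.2 (featureCounts), in an order not given, with GRCm38. The deposited table holds a signal per gene and library, reads divided by 1 factor per library; 100% of values above 0 were whole multiples of 1 read within 0.01 reads, so reads were recovered. No source names the tool behind the factors. The authors also deposited a log2 fold change, p-value and adjusted p per gene. The 11911 genes were matched by symbol, with 25 symbols replaced from GENCODE M21.

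The groups were taken from the genotype label. limma 3.58.1 (R 4.3.3; trend, robust) was fitted to log2(normalised reads + 1) of the 6951 genes that 6 or more libraries held at 10 or more normalised reads, with Benjamini-Hochberg adjustment at 0.05; on this scale a library at 0 weighs heavily, so the fold change of a patchily read gene can be larger or smaller than the one from reads, or have the other sign. DESeq2 1.42.0 and edgeR 4.0.16 on recovered reads, other filters, pseudocounts and scalings, array weights and leaving out each library were alternatives. No 2 libraries agreed within sampling noise (lowest chi-square per degree of freedom 196). All 10 genes and those closest in pattern were named; of each wider list, the 3 tested genes of smallest unadjusted p, with Pecam1, Cldn5, Cavin3, Erg and Flt1 in any case. The members and lists were chosen with earlier results of these data known. Agpat2 was named for its overlap, and Aplnr and Clec14a after their values were seen. Intervals and floors cover counting error or library spread only.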

Additional observations from a re-analysis of the deposited data

Results flagged for a closer look

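In 22 of 96 groups of 6 libraries looked at, 1 library stood apart from the other 5 by a gap that is large against the group's range. Normally distributed values would pass this cut in about 1 in 20 groups. The values here are skewed, many are 0 and the groups share libraries, so that rate is not a background for them. Genes read in few libraries meet the cut by being at or near 0 elsewhere.

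Among the 10 endothelial genes, control 11 stood apart for Kdr (277 normalised reads), Tie1 (42.05) and Tek (17.05), and control 8 for Emcn (872.9).

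Among the wider endothelial genes, the LOY libraries that stood apart were LOY 3 for Ptprb (1522.5), LOY 10 for Lpl (3515), LOY 4 for Vcam1 (294.3) and LOY 5 for Fli1 (1335.1). The control libraries were control 12 for Ptprb (697.8), control 8 for Nrp1 (1043.9), Epas1 (765.2) and Lama4 (781.7), and control 6 for Esam (695.3), Cd34 (412.4), Cavin3 (178.1) and Erg (119).

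Among the marker sums, LOY 10 stood apart for cardiomyocytes (67335.9), LOY 14 for red cells (6766.4) and for the adipocyte marker (463.5), and LOY 3 for T and NK cells (657.5). Control 11 stood apart for the adipocyte marker (56.83) and control 7 for T and NK cells (439.9).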

How the results depend on the processing

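No paired analysis was possible because the LOY and control libraries share no replicate number. In every setting run 0 of the endothelial genes tested passed. The number tested ran from 6 to 10 with the setting, and a gene below the filter could not pass. Over all genes 2 passed in limma, against 303 in DESeq2 and 0 in edgeR (129 at an unadjusted p below 0.05), 0 with no filter (466 unadjusted) and 0 with a mean filter of 50 (327 unadjusted). Leaving out 1 library gave 0 to 4, being 0 without LOY 3, 4, 5, 14 or 15 or control 7, 8 or 12, 1 without control 2, 3 without control 6 and 4 without control 11. DESeq2 called 2 genes of the wider lists, against 0 in limma.

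The sign turned for Cdh5 in DESeq2 (0.188), edgeR (0.205), with array weights (0.249) and with 1 library left out (-0.966 to 0.878). For Kdr it turned with array weights (-0.436) and with 1 library left out (-0.103 to 1.457), where 6 of 12 such fits tested Kdr. The sign also turned for Emcn in DESeq2 (-0.751) and edgeR (-0.662), and for Eng with 1 library left out (-0.677 to 1.104). In the wider lists it turned for Vegfa in DESeq2 (0.322), edgeR (0.314), with array weights (0.182) and with 1 library left out (-1.007 to 0.884), for Nrp1 in DESeq2 (-0.030) and with 1 left out (-1.058 to 1.674), and for Lama4 in DESeq2 (-0.281) and edgeR (-0.225). It also turned with 1 left out for Ptprb (-0.520 to 1.595) and Flt1 (-1.108 to 0.979). The cause was not tested. Cav1 ran from 2.74 to 4.91 (adjusted p 0.235 to 1.000) and Egfl7 from 1.73 to 3.60 (0.494 to 1.000) over the settings. The ratio of the summed 10 genes, 1.82, was 1.74 with TMM factors, 1.93 as RPM and 1.62 to 2.10 with 1 library left out. Patchy detection over 6 libraries a group limits precision: the 95% interval of Kdr reached from -3.83 to 5.06 on the log2 scale.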
